A study of Mus musculus with 8 samples.

Results

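Ribosome biogenesis factors are the proteins that make ribosomes without being part of them. RNA polymerase I transcribes the ribosomal RNA precursor in the nucleolus, small nucleolar ribonucleoproteins guide its chemical modification, and nucleolar assembly factors cleave it, fold it and add ribosomal proteins to form the large and the small subunit. Resting T cells hold few ribosomes and a small nucleolus, and antigen receptor signalling with costimulation is known to raise ribosome production before division. The set described here holds 38 such factors and no ribosomal protein, and was chosen by name with earlier results of the data known. It is therefore not independent of the values. Of the 38 factors, 37 had a probe set assigned to that gene alone, among 12394 genes with such a probe set. The one used for each gene is that with the highest mean log2 signal. No value is given for Dkc1, the pseudouridine synthase of H/ACA particles, which had no probe set assigned to it alone. All 37 were above the floor of 141.88 signal units on all 8 arrays and were among the 8457 genes tested.

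The study compared T cells of wild-type mice with T cells of mice labelled as lacking Gfi1, a zinc finger transcriptional repressor of blood cells. Cells were taken from C57Bl/6 spleens with a magnetic pan-T cell kit and hybridised to Affymetrix MOE430A_2.0 arrays, either untreated (0 h) or after 4, 8 or 24 h of culture with anti-CD3 and anti-CD28 (2 µg antibody per ml), which engage the T cell receptor complex and the costimulatory receptor CD28. There were 8 arrays, 1 for each genotype and time, and the titles give 1 source number per genotype, 501 for the knockout and 502 for the wild type. No value therefore has a replicate error, and differences between genotypes are given by size with no p-value. No array held cells cultured without the antibodies, so the effect of the antibodies and that of time in culture cannot be told apart. Age, sex and the deleted part of Gfi1 are not stated in the labels.

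The deposited signals are linear intensities with a 2% trimmed mean of 1000.4 to 1000.5 on every array. Median signals ran from 224 to 305, and 56.5% to 61.5% of probe sets lay above the floor. The Gfi1 probe set gave 882, 6359, 5259 and 3966 in the wild-type-labelled arrays at 0, 4, 8 and 24 h and 2316, 5979, 6459 and 9885 in the knockout-labelled arrays. It was not lower in the knockout-labelled arrays except at 4 h, and where it lies relative to the deletion was not given, so it is no check of the labels, and arrays are named by label only. All 13 T cell identity genes with a probe set (Cd3e, Cd28 and Zap70 among them) were above the floor on all 8 arrays. Their summed signal was 69375 to 97571 in the wild-type-labelled arrays and 26069 to 32644 in the knockout-labelled arrays of 0, 4 and 8 h, with 62901 in the knockout-labelled array of 24 h. The 13 genes of granulocyte precursors and neutrophils summed to 924 to 16596 in the wild-type-labelled arrays, with 1 to 12 of them above the floor, and to 5799 to 168720 in the knockout-labelled arrays, with 9 to 12 above it. The 15 monocyte and macrophage genes summed to 1799 to 12248 and to 21348 to 79242. Of the 10 B cell genes, Ighm gave most of the signal. It gave 38904.8, 44406.5, 18613.5 and 6306.1 in the wild-type-labelled arrays and 38345.1, 46727.5, 43311.1 and 23010.8 in the knockout-labelled arrays, higher in the latter from 4 h on. The other 9 summed to 1159 to 5618 and to 845 to 4040.0, lower in the knockout-labelled array at each time, although Blk among them was higher there at each time. Red cell precursor genes summed to 17559 and 19643 at 0 h and to at most 2197 later, and none of 3 natural killer cell genes was above the floor in the knockout-labelled arrays. The 4 dendritic cell genes summed to 592.1 to 2016 and to 572 to 859. The knockout-labelled arrays thus carried more myeloid and less T cell signal at all 4 times, and what part of any genotype difference goes with this was not tested.

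Promoters of several of these genes are known to hold the sequence CACGTG, an E-box read by Myc and related factors. RefSeq promoter windows of 300 bases, 250 before and 50 after the transcript start (GRCm38.p6), were matched by symbol for 34 members. CACGTG, which reads the same on both strands, was found in 8 of the 34 (23.5%), against 8.09% of all 27025 genes with a window and 12.1% of 6920 genes tested here. It lay after the start in 5 of them (Grwd1, Pes1, Mybbp1a, Tsr1 and Wdr43). Within the 250 bases before the start it was found in 3 of 34 (8.82%), against 10.1% of genes tested. These 3 upstream stretches are shown because they are the only member promoters with CACGTG before the start, with CACGTG in capitals. Utp18 lies at chr11:93885767-93886016 on the minus strand, Nop2 at chr6:125131633-125131882 on the plus strand and Rrn3 at chr16:13780449-13780698 on the plus strand, each printed 5′ to 3′ up to the base before the start.
Utp18: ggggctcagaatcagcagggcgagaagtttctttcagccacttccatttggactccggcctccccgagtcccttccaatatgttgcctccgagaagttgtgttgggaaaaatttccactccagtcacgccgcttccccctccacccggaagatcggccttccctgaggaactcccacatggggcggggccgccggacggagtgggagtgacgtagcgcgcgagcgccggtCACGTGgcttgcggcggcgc
Nop2: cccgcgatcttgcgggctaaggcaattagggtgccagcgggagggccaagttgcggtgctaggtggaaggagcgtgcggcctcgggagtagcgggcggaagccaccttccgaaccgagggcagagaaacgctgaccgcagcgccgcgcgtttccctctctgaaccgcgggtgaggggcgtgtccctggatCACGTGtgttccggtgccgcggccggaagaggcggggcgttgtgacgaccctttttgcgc
Rrn3: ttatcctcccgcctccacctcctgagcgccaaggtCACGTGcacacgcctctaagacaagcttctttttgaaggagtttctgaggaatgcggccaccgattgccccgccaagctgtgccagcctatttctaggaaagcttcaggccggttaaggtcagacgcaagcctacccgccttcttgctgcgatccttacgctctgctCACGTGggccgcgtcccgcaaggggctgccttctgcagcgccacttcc
The match begins 20 bases before the start in Utp18 and 60 in Nop2, while Rrn3 holds it at 215 and 48 bases before the start. The ETS core CCGGAAG, searched on both strands, was found in a window of 16 of 34 members (47.1%) and of 21.3% of genes tested. TATAAA, also searched on both strands, was found in 3 of 34 (8.82%) and in 8.93%. A match is only a run of letters, and no binding was measured.

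In the wild-type-labelled arrays every one of the 37 factors had its lowest signal at 0 h. All 37 were higher at 4, 8 and 24 h than at 0 h, which held for 21.3% of all genes tested. Under quantile normalization Emg1 alone was lower at 4 and 8 h than at 0 h, and all 37 stayed higher when arrays were divided by their medians. The median change was 0.95 at 4 h, 1.28 at 8 h and 1.19 at 24 h on the log2 scale, while the median over all genes was -0.10, -0.06 and -0.06. Signals were at least 2-fold higher than at 0 h for 17 members at 4 h (6.23% of all genes), 27 at 8 h (8.25%) and 24 at 24 h (7.39%). When arrays were divided by their medians these counts were 27, 34 and 36, with medians over all genes of 0.03, 0.13 and 0.18. Shares of all genes on that scale are not given. In the knockout-labelled arrays as deposited the member medians were -0.13, 0.41 and 0.12, against -0.06, -0.11 and -0.04 over all genes. None of the 37 was at least 2-fold higher there at 4 h (5.36% of all genes), 1 was at 8 h (Noc4l, 6.76%; 4 members when arrays were divided by their medians) and 1 at 24 h (Polr1c, 9.10%). At 4 h, 24 of the 37 (64.9%) lay below their own 0 h signal, near the 54.6% of all genes. That count was 24 under quantile normalization and 19 when arrays were divided by their medians. In bulk RNA, fewer cells of a type and less RNA per cell cannot be told apart.

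**Figure D1:**
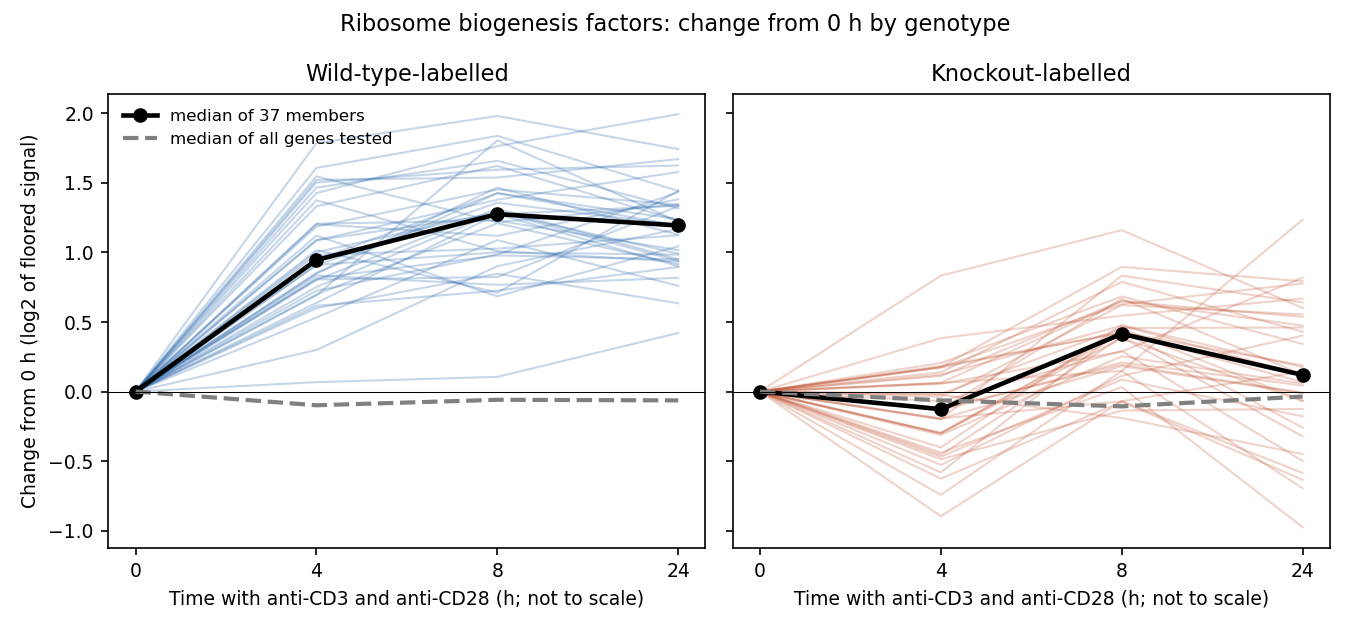
Change from 0 h on the log2 scale for each of 37 ribosome biogenesis factors (thin lines) in the wild-type-labelled (left) and knockout-labelled (right) arrays at 0, 4, 8 and 24 h, with the member median (black) and the median of all genes tested (grey, dashed). The member median reaches 0.95, 1.28 and 1.19 on the left and -0.13, 0.41 and 0.12 on the right.

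The time course of the members also differed in shape. In the wild-type-labelled arrays the highest signal fell at 4 h for 4 members, at 8 h for 20 and at 24 h for 13. In the knockout-labelled arrays it fell at 8 h for 26, at 24 h for 7 and at 0 h for 4, while 20 members had their lowest signal at 4 h. From 8 to 24 h, 29 of 37 were lower in the knockout-labelled arrays (43% of all genes) and 21 of 37 in the wild-type-labelled arrays (48.3%). The highest signal over the lowest was 2.56-fold in the median in the wild-type-labelled arrays, from 1.34-fold for Emg1 to 3.98-fold for Nop16. It was 1.61-fold in the knockout-labelled arrays, from 1.24-fold for Nhp2 to 2.36-fold for Polr1c. The span was wider in the wild-type-labelled arrays for all 37. Shares of all genes with these times of highest or lowest signal, or with a wider span, are not given. Whether these patterns belong to the members or to the arrays as a whole was therefore not tested.

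**Figure D2:**
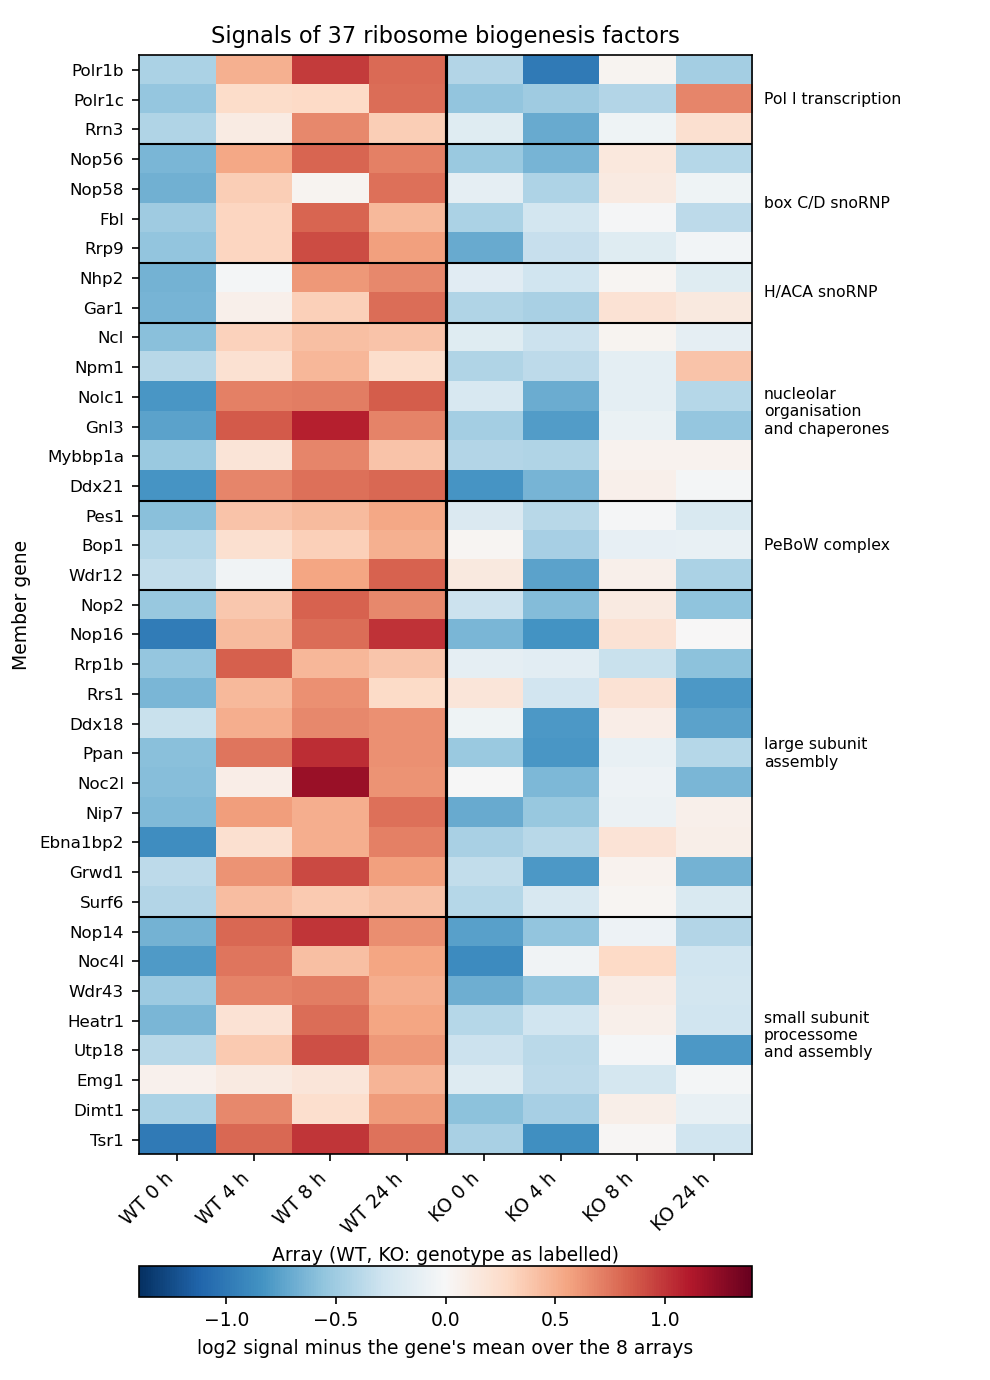
Log2 signal of each of 37 members minus that member's mean over the 8 arrays (colour), with arrays in columns by labelled genotype and time and members in rows by role. All wild-type-labelled 0 h values but that of Emg1 are under the member's mean, and 20 members have their lowest knockout-labelled value at 4 h.

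Polymerase I itself was represented by a core subunit, a subunit shared with polymerase III and the initiation factor Rrn3. Polr1b, the second-largest polymerase I subunit, gave 843, 1624, 2267 and 1988.5 in the wild-type-labelled arrays at 0, 4, 8 and 24 h and 863, 576, 1181 and 825 in the knockout-labelled arrays. The arrays of 0 h were alike, and every stimulated wild-type-labelled array lay above every knockout-labelled one. Polr1c, the shared subunit, gave 1929.6, 3374, 3414 and 4858 against 1919, 2002, 2126 and 4520.5. Its knockout-labelled signal stayed near the 0 h level until 8 h and came close to the wild-type-labelled one again at 24 h. Rrn3, which brings polymerase I to the ribosomal DNA promoter and whose upstream letters are printed above, gave 726, 1050.3, 1545 and 1230.0 against 861, 597, 931 and 1137.5. At 24 h the genotypes were within 1.08-fold for Rrn3 and 1.07-fold for Polr1c, against 2.41-fold for Polr1b.

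Among the proteins of box C/D particles, which guide ribose methylation, Nop56, a core scaffold, gave 4007.5, 9118.5, 10974 and 10163 in the wild-type-labelled arrays and 4357, 3991, 6920 and 4739.6 in the knockout-labelled arrays. The wild-type-labelled signal was 0.92-fold the knockout-labelled one at 0 h, 2.28-fold at 4 h and 2.14-fold at 24 h. Rrp9, a protein of the U3 particle that acts in early cleavage, gave 924, 1668, 2552 and 2019 against 828, 1079.9, 1208 and 1316, again without overlap after 0 h. Fbl, the methyltransferase fibrillarin, was 1.47-fold, 1.78-fold and 1.77-fold higher in the wild-type-labelled arrays at 4, 8 and 24 h. Nop58, the partner scaffold of Nop56, was the one member not lower in the knockout-labelled array at 8 h, at 5205 against 4890.5.

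The H/ACA particles, which guide pseudouridylation, were represented by Gar1 and Nhp2, both core proteins. Gar1 gave 2977, 4920.5, 5894 and 8042 in the wild-type-labelled arrays and 3488, 3397, 5365 and 5120.5 in the knockout-labelled arrays. Nhp2 gave 5771, 8976, 13972 and 14568 against 8189, 7529, 9368 and 8141. Both continued to higher signals from 8 to 24 h in the wild-type-labelled arrays only, and the stimulated arrays of the genotypes overlapped for both. At 4 h their wild-type-labelled signals were 1.45-fold and 1.19-fold the knockout-labelled ones, and 1.19-fold was the smallest difference among the 37 at that time.

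Nucleolar organisers and chaperones held some of the widest differences. Gnl3, the nucleolar GTPase nucleostemin, gave 3062, 9331, 10948 and 8324 in the wild-type-labelled arrays and 3699, 3001, 4830.5 and 3527 in the knockout-labelled arrays. It was 3.05-fold above its 0 h signal at 4 h in the former and 0.81-fold in the latter. Ddx21, an RNA helicase that acts in polymerase I transcription and processing, gave 2165, 6139.9, 6542 and 6680.0 against 2167, 2449, 4033 and 3755. Its 0 h signals were alike, and no stimulated arrays overlapped. Nolc1, a chaperone of small nucleolar particles, named after its values were seen, gave 2295, 6592, 6668 and 7308 against 3467, 2506, 3681 and 3065. The knockout-labelled array was the higher one at 0 h and the lower one at each later time. Npm1, the histone and ribosome chaperone nucleophosmin, also named after its values were seen, was the one member not lower in the knockout-labelled array at 24 h, with 37902 against 34223. Quantile normalization and division of arrays by their medians each turned that difference round. Ncl, nucleolin, was 1.55-fold, 1.30-fold and 1.44-fold higher in the wild-type-labelled arrays at 4, 8 and 24 h, while another of its probe sets had the opposite direction at 8 h.

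Pes1, Bop1 and Wdr12 form the PeBoW complex, which processes the precursor of the large subunit RNAs. Pes1 gave 1797, 3552, 3664 and 3915.5 in the wild-type-labelled arrays and 2343, 2046, 2659 and 2325 in the knockout-labelled arrays. Bop1 gave 1395, 2138.5, 2307 and 2595 against 1864, 1331, 1696 and 1709. Wdr12 gave 1585, 1949, 2960.5 and 3563 against 2223, 1194, 2120.2 and 1481. All 3 had a higher 0 h signal in the knockout-labelled array and higher signals in the wild-type-labelled array at each later time. For Bop1 and Wdr12, as for Noc2l and Rrp1b among the large subunit factors, every stimulated knockout-labelled array lay below its own 0 h array while every stimulated wild-type-labelled array lay above (4 members, 3.9% of all genes). Dividing arrays by their medians left 0 members with this pattern. Other tested probe sets of Rrp1b and Wdr12 did not show it as deposited. An Rrp1b one gave 733.4, 763.5, 1090.8 and 1046.5 in the knockout-labelled arrays at 0, 4, 8 and 24 h. The other Wdr12 probe set gave 481.9, 427.6, 479.6 and 423.6 in the wild-type-labelled arrays.

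The 11 large subunit assembly factors had a median change at 4 h of 1.09 in the wild-type-labelled and -0.30 in the knockout-labelled arrays, and 7 of them were at least 2-fold higher at 4 h in the former. Ppan, an assembly factor of the large subunit precursor, gave 966, 2433, 2975 and 2265.5 against 1015, 826, 1353 and 1100.6. Nip7, which joins the same precursor, gave 2463, 5671, 5351 and 6424 against 2305, 2600.1, 3562 and 3951. Neither overlapped between genotypes after 0 h, and at 0 h their wild-type-labelled signals were 0.95-fold and 1.07-fold the knockout-labelled ones. Rrp1b gave 1155, 2996, 2324 and 2206.5 against 1549, 1524, 1357 and 1135, and was 1 of the 4 members that were highest at 4 h in the wild-type-labelled arrays. Noc2l, of the complexes that export precursors, gave 896, 1448, 3134 and 2092 against 1353, 877, 1286 and 872. Its wild-type-labelled signal was highest at 8 h, when the genotypes differed 2.44-fold. Nop16 reached 3.98-fold of its 0 h signal at 24 h in the wild-type-labelled arrays and 1.56-fold in the knockout-labelled arrays.

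Small subunit factors had a median change at 4 h of 1.16 in the wild-type-labelled and 0.12 in the knockout-labelled arrays. Tsr1, which acts late in the cytoplasm on the small subunit precursor, gave 1090.0, 3759.6, 4305 and 3649 against 1573, 1191, 2188 and 1777. Its 3.45-fold step from 0 to 4 h in the wild-type-labelled arrays was the largest of the 37, as was the 3.16-fold difference between genotypes at 4 h. Nop14, of the small subunit processome, gave 936, 2586, 2955 and 2333 against 877, 1011, 1408 and 1111. Its wild-type-labelled signal was over 2-fold the knockout-labelled one at each stimulated time, and the 0 h signals were alike. Noc4l, a partner of Nop14, gave 1809.6, 5289, 4207 and 4602 against 1701, 3030.0, 3802 and 2579. In the knockout-labelled arrays it was 1.78-fold its 0 h signal at 4 h and 2.24-fold at 8 h, the highest of the 37 at both times. Emg1, a methyltransferase of the small subunit RNA, gave 9469, 9924, 10188 and 12680.5 against 8039, 7029, 7659 and 8888. Emg1 had the smallest step from 0 to 4 h in the wild-type-labelled arrays, 1.05-fold, and lay higher there than in the knockout-labelled arrays at every time, 0 h included.

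**Figure D3:**
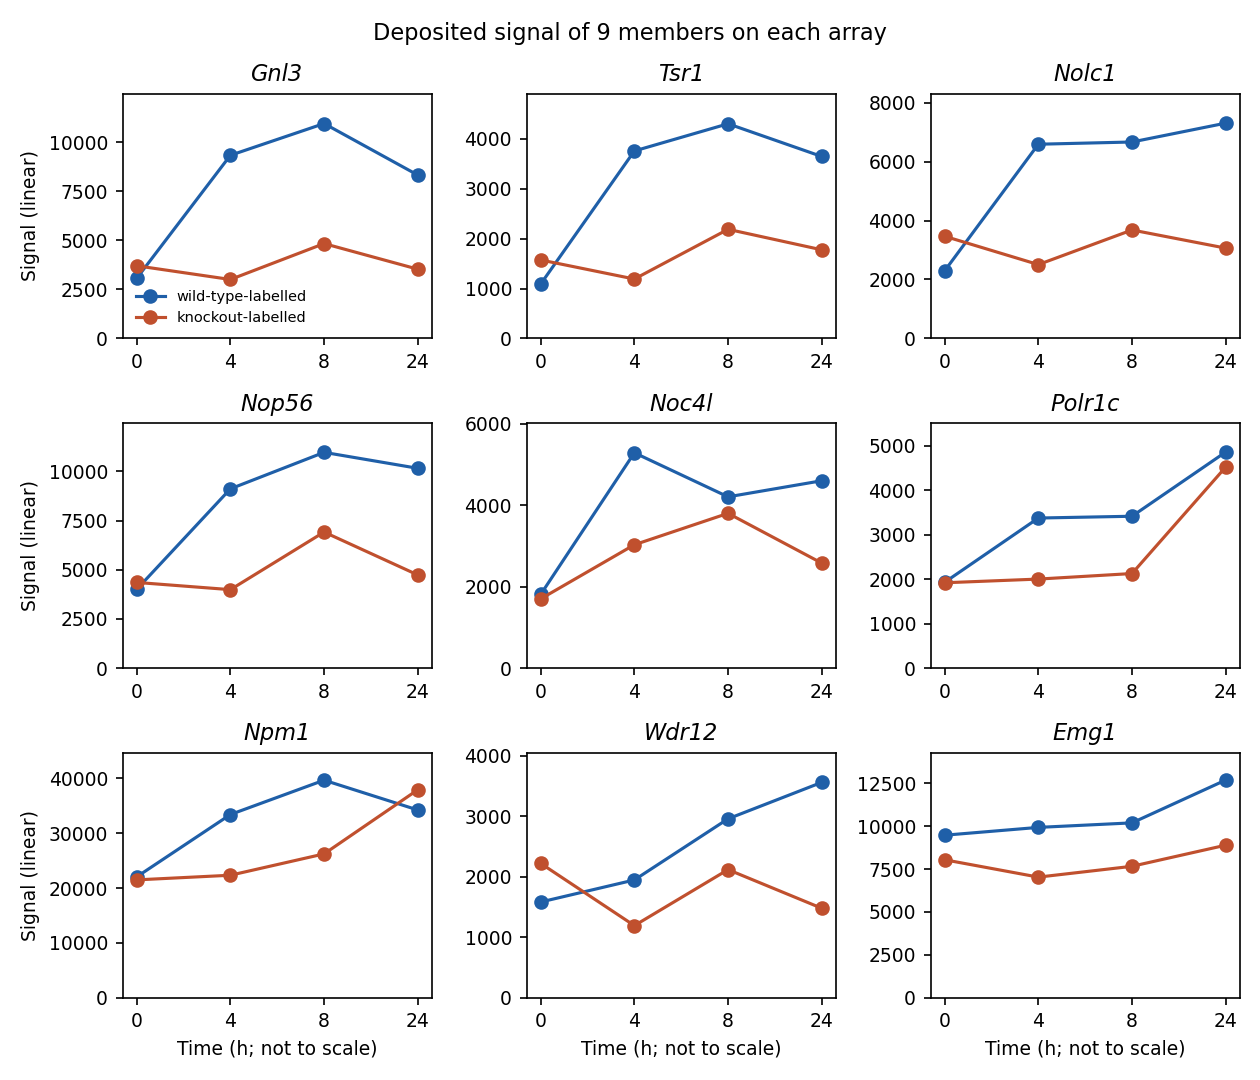
Deposited signal (linear scale from 0) of 9 members on each of the 8 arrays, by time in hours, with the wild-type-labelled arrays in blue and the knockout-labelled arrays in red; each point is 1 array, with no replicate. Gnl3, Tsr1 and Nolc1 separate after 0 h, Polr1c meets again at 24 h, Npm1 crosses at 24 h and Emg1 stays nearly level.

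Set against each other at the same time, the 0 h arrays showed no member 2-fold apart in either direction (of all genes, 6.75% were lower and 8.08% higher by that much in the knockout-labelled array). The median difference, knockout-labelled minus wild-type-labelled, was 0.23 at 0 h, with 28 of 37 above 0 (45.2% of all genes). It was -0.80, -0.64 and -0.84 at 4, 8 and 24 h, against 0.00, -0.08 and 0.00 over all genes. All 37 were lower in the knockout-labelled array at 4 h (49.2% of all genes), 36 at 8 h (54.3%) and 36 at 24 h (45.5%), and 35 were lower at all 3 times (23%). At least 2-fold lower were 14 at 4 h (6.56%), 5 at 8 h (6.66%, near that background with 13.5% of members) and 15 at 24 h (5.06%). Gnl3, Ppan and Nop14 were at least 2-fold lower at all 3 times (0.449% of all genes), and no member was 2-fold higher at 4, 8 or 24 h (11.8%, 10.7% and 9.18%). None was 2-fold apart in the same direction at all 4 times (1.86% of all genes higher, 0.166% lower). For 30 members every stimulated wild-type-labelled array lay above every stimulated knockout-labelled array (12.3% of all genes), the exceptions being Gar1, Nhp2, Nop58, Npm1, Polr1c, Rrn3 and Wdr12. The 3 times are not replicates of a genotype. Of 27 further tested probe sets for 20 of the members, 27 were lower in the knockout-labelled array at 4 h, 25 at 8 h and 23 at 24 h. The 2 higher at 8 h belonged to Heatr1 (0.57) and Ncl (0.31).

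The direction of this genotype difference rested on the scale. Taken relative to the median of the T cell identity genes, the member median became 1.92 at 0 h, 0.87 at 4 h and 1.00 at 8 h. All 37 members were above 0 at these times. The T cell identity genes themselves had median differences of -1.69, -1.67 and -1.64 on the log2 scale at 0, 4 and 8 h. That median was subtracted from every gene of the same time, so the place of the members against all genes stayed as deposited. At 24 h the member median was -0.59, with 34 members below 0, when the T cell genes differed by a median of -0.25. Dividing arrays by their medians moved the median over all genes to -0.11, -0.16 and -0.19 at 4, 8 and 24 h, and relative to it the members lay at -0.82, -0.56 and -0.92. The deposited scale and both other array scalings gave 0 of 37 members higher in the knockout-labelled array at 4 h.

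**Figure D4:**
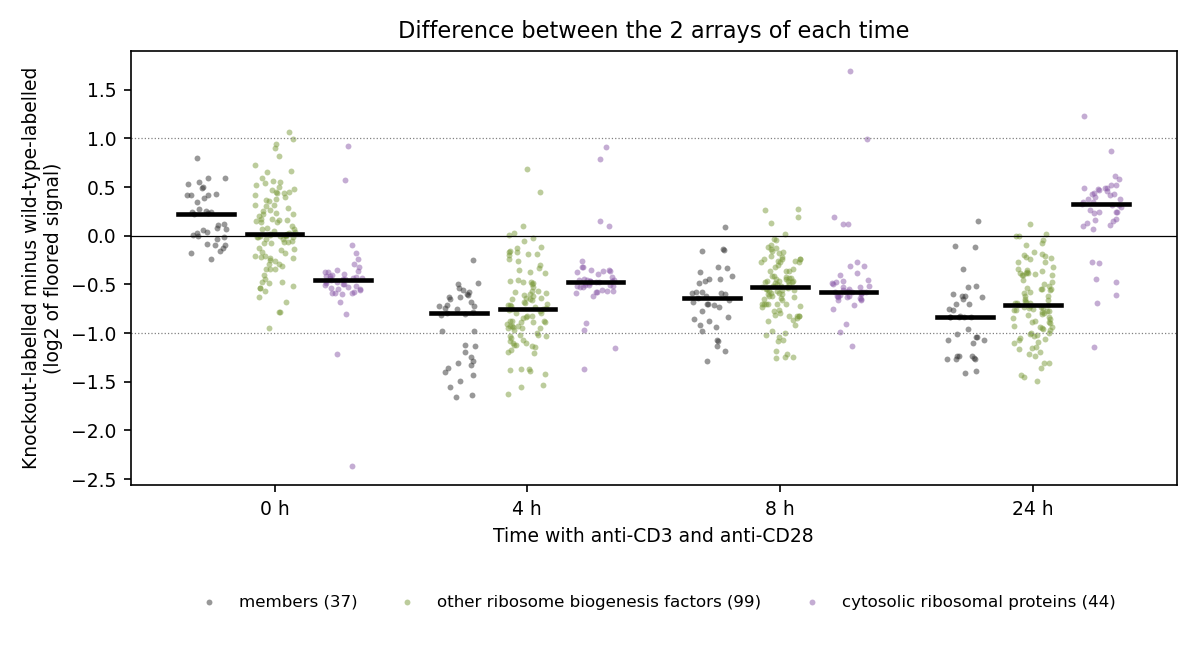
Difference between the 2 arrays of each time, knockout-labelled minus wild-type-labelled on the log2 scale, for 37 members, 99 other ribosome biogenesis factors and 44 cytosolic ribosomal proteins; each point is a gene, black bars are medians and dotted lines mark 2-fold. Member medians are 0.23, -0.80, -0.64 and -0.84 at 0, 4, 8 and 24 h.

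The difference in response is the knockout-labelled change from 0 h minus the wild-type-labelled one, and so sets each genotype against its own 0 h array. Its median was -1.10 at 4 h, -0.89 at 8 h and -1.07 at 24 h, against 0.04, -0.03 and 0.04 over all genes. It was at least 2-fold lower for 25 members at 4 h (5.95%), 8 at 8 h (8.34%) and 21 at 24 h (13%). All 37 responses were below 0 at 4 h (45.3% of all genes) and at 8 h (51.8%), and 36 at 24 h (46.5%), with Npm1 at 0.18. Under quantile normalization and under division by the median all 37 were below 0 at 24 h. At 4 h, 17 members were at least 2-fold above 0 h in the wild-type-labelled and within 2-fold in the knockout-labelled array (3.51% of all genes). Responses relative to the T cell identity genes kept this direction.

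**Figure D5:**
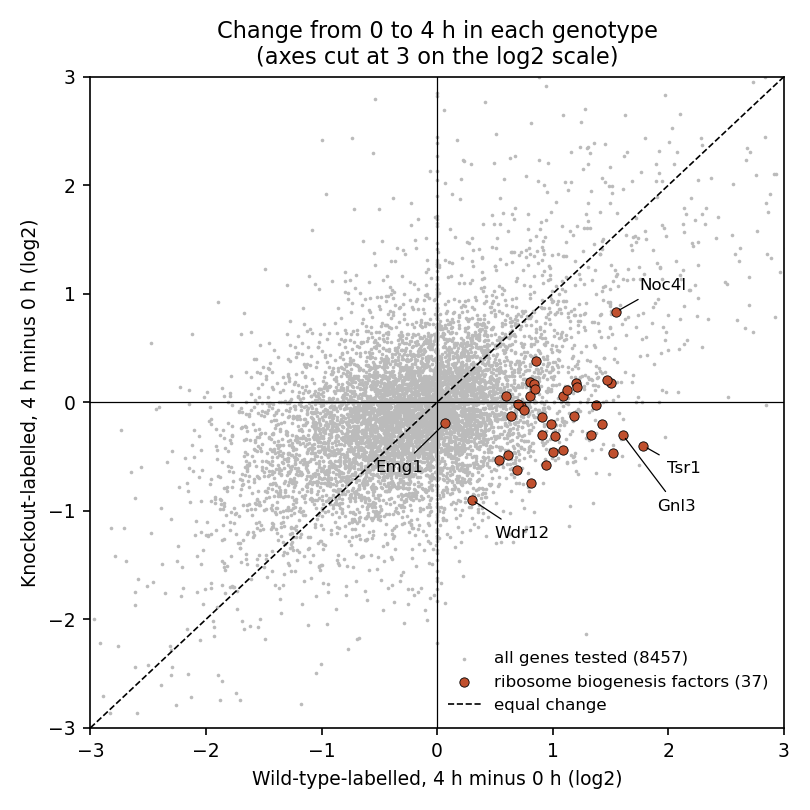
Log2 change from 0 to 4 h in the wild-type-labelled (x axis) and knockout-labelled (y axis) arrays for 8457 genes tested (grey) and 37 members (red), with the line of equal change (dashed); axes end at 3 and leave out 101 genes. All 37 members lie right of 0 and under the line, with Noc4l highest on the y axis and Emg1 nearest to 0 on the x axis.

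The test of stimulation common to both genotypes used limma over all 15062 probe sets, with time and genotype in the model. No member passed an adjusted p under 0.05 with at least a 2-fold change at 4 h (0.804% of all genes were called higher and 0.627% lower), 8 h (1.18% and 1.25%) or 24 h (1.49% and 2.48%), or between 8 and 24 h (0% in either direction). At an unadjusted p under 0.05, 5 members were higher at 4 h, 17 at 8 h, 12 at 24 h and 1 at 24 against 8 h, and none was lower. Of all 8457 genes, 466, 615, 649 and 375 were higher and 750, 1090, 1197 and 390 lower in the same comparisons. The estimates average genotypes whose responses differed, with medians of 0.43, 0.83 and 0.67. In this model a change present in 1 genotype alone adds to the residual spread, so the absence of calls does not bear on a change in the wild-type-labelled arrays alone. Noc4l had the lowest adjusted p among members at 4 h (1.19, SE 0.27, limma adjusted p = 0.129) and at 8 h (1.19, adjusted p = 0.0861), and its 4 stimulated arrays of 4 and 8 h were above 0 h in both genotypes. Polr1c had the lowest at 24 h (1.28, SE 0.27, limma adjusted p = 0.0553), with both genotypes higher. With arrays divided by their medians Polr1c passed (1.58, limma adjusted p = 0.0339).

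Of 125 other ribosome biogenesis factors listed, also with earlier results of these data known, 99 were tested. Their median change in the wild-type-labelled arrays was 0.79, 0.87 and 0.90 at 4, 8 and 24 h, and -0.10, 0.28 and 0.12 in the knockout-labelled arrays. Signals were lower in the knockout-labelled array for 94 of 99 at 4 h (49.2% of all genes), 94 at 8 h (54.3%) and 96 at 24 h (45.5%). At least 2-fold lower were 24 at 4 h (6.56%), 9 at 8 h (6.66%, near that background) and 21 at 24 h (5.06%). In limma 0 of 99 passed at any time, with 8, 30 and 21 higher and 0 lower at an unadjusted p under 0.05. Over all 8457 genes, 466, 615 and 649 were higher and 750, 1090 and 1197 lower by that measure. Rcl1, a processing factor of the small subunit, had the largest estimate at 4 h (0.94, SE 0.41, limma adjusted p = 0.385). It gave 1154, 3711, 4067 and 2893 in the wild-type-labelled arrays and 1574, 1795, 2405 and 1232 in the knockout-labelled arrays. Exosc7, a subunit of the RNA exosome that trims precursors, had the lowest estimate (-0.55, SE 0.27, limma adjusted p = 0.451). Not all of the machinery was higher at 4 h in the wild-type-labelled arrays, since Ubtf, the polymerase I factor UBF, gave 2153, 1688, 3565 and 2497.

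The 44 cytosolic ribosomal proteins tested, the products that these factors assemble, had genotype differences whose size depended on the scaling at 0, 4 and 8 h and whose direction depended on it at 24 h. Their median, knockout-labelled minus wild-type-labelled, was -0.45, -0.47, -0.57 and 0.32 at 0, 4, 8 and 24 h as deposited, -0.07, -0.05, -0.04 and -0.13 after quantile normalization and -0.47, -0.61, -0.65 and 0.05 when arrays were divided by their medians. Their median change from 0 to 4 h as deposited was 0.17 in the wild-type-labelled and 0.16 in the knockout-labelled arrays, and -0.03 and -0.02 after quantile normalization. Myc, the transcription factor known to drive ribosome biogenesis genes, gave 3225, 16418, 13945 and 7789 in the wild-type-labelled arrays and 4320.1, 7348, 7020 and 2962 in the knockout-labelled arrays. Its limma estimate at 4 h was 1.56 (SE 0.43, adjusted p = 0.186), higher in both genotypes.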

How the data were processed

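The authors deposited signal intensities made with GCOS 1.4 and MAS5, per the submitters' processing notes; their settings and a genome build are not given in the sources used here. Biotinylated cRNA came from about 1 µg of TRIzol-extracted RNA, per the labels. Of 22690 probe sets, 64 were controls, and 0 sample columns were unused; 20380 had 1 symbol, 691 several and 1555 none.

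Signals under 141.88 (log2 7.15, the median over arrays of the 40th percentile) were set to that floor before taking log2, and probe sets above it on at least 2 arrays were tested. Genes with several probe sets took the one with the highest mean. limma 3.58.1 under R 4.3.3 fitted time and genotype, with eBayes, a variance trend and Benjamini-Hochberg adjustment. There were 3 residual degrees of freedom and a median of 3.88 prior ones, so the number of arrays limits precision. Genotypes and responses were compared by size, at 2-fold. Steps were tested on simulated data.

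Members, roles and lists were chosen with earlier results of these data known. Values on all 8 arrays are given for the members with the largest mean change or genotype difference in each role group, and for others only as stated. Promoters came from RefSeq; Bop1, Fbl, Rrs1 and Npm1 were not matched. Figures were drawn with matplotlib 3.10.9, pandas 2.3.3 and numpy 2.4.6 in python 3.11.15. The alternatives were quantile normalization, log2 of the signal plus the floor, division by the median, no filter, a floor at the 20th or 60th percentile, other fold thresholds, values relative to T cell identity genes, no genotype block, no trend, a median over probe sets, and leaving out arrays or pairs.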

Additional observations from a re-analysis of the deposited data

Results flagged for a closer look

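For 4 members every stimulated wild-type-labelled array lay above, and every stimulated knockout-labelled array below, the 0 h array of the same genotype, a pattern shown by 3.90% of all genes. The mean difference in response over 4, 8 and 24 h, knockout-labelled minus wild-type-labelled on the log2 scale, was -0.995 for Bop1, -1.68 for Noc2l, -1.33 for Rrp1b and -1.31 for Wdr12. With 1 array per genotype and time this difference was not tested. Other tested probe sets of Rrp1b and Wdr12 did not show the pattern, and Bop1 and Noc2l had no other probe set. After quantile normalization the pattern held for Bop1, Ncl, Rrs1 and Wdr12, and for 0 members when arrays were divided by their medians.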

How the results depend on the processing

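The number of members called by limma at 4 h, at 8 h and between 8 and 24 h was 0 under every alternative run, and leaving out single arrays gave 0 to 0 for all 4 tests. At 24 h, 1 member (Polr1c) was called when arrays were divided by their medians and 1 with log2 of the signal plus the floor. The genotype term groups the 4 arrays of each source across times, and with this term left out 0 members were called in each test.

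Relative to the T cell identity genes, 37 members were at least 2-fold higher at 0 h, 11 at 4 h and 18 at 8 h. At 24 h, 6 were at least 2-fold lower. The median difference was 1.92, 0.87 and 1.00 at 0, 4 and 8 h. The T cell median of each time was subtracted from every gene, so all genes shifted alike. Shares of all genes on that scale are not given. On that scale all 37 members turned to above 0 at 4 h, among them the 14 that were at least 2-fold lower as deposited: Polr1b 0.17, Nop56 0.48, Nolc1 0.27, Gnl3 0.0318, Ddx21 0.34, Nop16 0.38, Ddx18 0.36, Ppan 0.11, Nip7 0.54, Grwd1 0.24, Nop14 0.31, Wdr43 0.42, Dimt1 0.53 and Tsr1 0.0095. Responses at least 2-fold apart on that scale numbered 14 at 8 h and 37 at 24 h, all lower in the knockout-labelled arrays. Subtracting the T cell median of -1.69 at 0 h raised every gene's difference there. That median was -0.25 at 24 h, so every gene's response at 24 h was lowered by the same amount.

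Counts followed the fold threshold. At 1.5-fold, 3 members were higher in the knockout-labelled array at 0 h. Lower there were 31 at 4 h, 23 at 8 h and 31 at 24 h, and 28 in response at 8 h. Shares of all genes are not given for the counts of this paragraph. At 4-fold, 0 differed between genotypes at 4, 8 and 24 h, and responses differed for 1, 0 and 0. Dividing by the median gave 24 members at least 2-fold lower at 24 h and 14 in response at 8 h. Log2 of the signal plus the floor gave 3 members at 8 h. Without the 0 h pair, 3 members were at least 2-fold apart at all times left.

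The median change in the wild-type-labelled arrays at 24 h was 1.62 with division by the median. In an alternative chosen after seeing the data, changes relative to the T cell identity genes, the wild-type-labelled medians were 1.74 at 8 h and 1.78 at 24 h, and the knockout-labelled ones 0.0005 at 4 h and -1.06 at 24 h. A median counted as moved when it shifted by more than the SD over members. The cause of each shift was not tested.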

Other observations

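Control probe sets for the small subunit ribosomal RNA were on the arrays and belong to no comparison above. The 5′ probe set gave 26481, 8979.8, 16126 and 4487 in the wild-type-labelled arrays at 0, 4, 8 and 24 h and 947.5, 16634, 2441 and 37640.2 in the knockout-labelled arrays. In the wild-type-labelled arrays it was highest at 0 h, where all 37 ribosome biogenesis factors were lowest. The 3′ probe set of the same RNA gave 900, 710, 1186 and 572.5 against 250.6, 994, 624 and 791.5. The middle probe set gave 1402.9, 1159.6, 1694.1 and 1034.1 against 510.7, 1603.8, 1075 and 1670.2. Both were highest at 8 h in the wild-type-labelled arrays, unlike the 5′ probe set.

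The DNA replication list, with 21 genes tested, had another time course than the ribosome biogenesis factors. Its median change in the wild-type-labelled arrays was -0.97 at 4 h, -1.03 at 8 h and 0.85 at 24 h, and in the knockout-labelled arrays -0.52, -1.20 and -1.59. The 18 mitosis genes tested had median changes of -1.43, -1.51 and -0.65 in the wild-type-labelled arrays and -0.06, -0.62 and -2.53 in the knockout-labelled arrays. In limma 0 genes of either list passed at any time, with 1, 3 and 0 replication genes and 0, 2 and 5 mitosis genes lower at an unadjusted p under 0.05. Among all 8457 genes, 750, 1090 and 1197 were lower by that measure at 4, 8 and 24 h.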
